A study of Homo sapiens with 9 samples.

Results

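The genes described here are the expressed natural antisense RNAs of 3 breast cancer cell lines and the genes they are named after. They are the rows of the deposited RPKM table (read counts divided by exon length and by library size) whose symbol ends in -AS and 1 digit and which reached an RPKM of 1 in 3 or more of the 9 libraries. The table has 58037 rows, of which 1173 carry such a name, and 177 of these (15.1%) passed the expression rule, which 22.3% of all rows did. The members were thus selected on their measured RPKM, so their levels are a description. An RNA could also enter because it was high in the 6 libraries labelled GSK343 or shEZH2: 20 members were under 1 RPKM in all 3 controls, 74 were at 1 or more in all 3 controls, and 65 in all 9 libraries. The 83 at 1 or more in only some controls also needed at least 1 labelled library to pass. Just outside the rule lay EPB41L4A-AS2, RBM26-AS1 and TMEM254-AS1, whose third-highest RPKM were 0.991, 0.994 and 0.997, and just inside lay UBAC2-AS1, TONSL-AS1 and RBM12B-AS1 at 1.01, 1.02 and 1.02.

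A natural antisense RNA is transcribed from the strand opposite to a named sense gene. Some start beside the sense promoter and run away from it, while others run through the sense gene and share exons with it, and most make no protein. Single members of this class have been described as raising or lowering their sense partner, through the chromatin of the shared locus, through pairing of the transcripts or through interference between the polymerases, while for many no function is known. Polycomb repressive complex 2, whose enzyme EZH2 methylates lysine 27 on histone H3, represses transcription at many CpG-rich promoters, and long noncoding RNAs are among the transcripts it is known to bind.

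RNA was sequenced from MDA-MB-231 and MDA-MB-436 and from cells labelled MDA-MB-453, established human breast cancer lines that the submitters class as triple-negative (without the hormone receptors and the HER2 amplification that guide treatment). Every line gave 1 control library, 1 library labelled GSK343 (a chemical inhibitor of EZH2's methyltransferase activity) and 1 labelled shEZH2 (a hairpin RNA against EZH2), 9 libraries in all and 3 in each group. The sample labels call the controls untreated, whereas the table's headers call them shControl, and the sources do not settle which of the 2 they were. Neither dose, time nor hairpin sequence is given. Values listed as a set of 3 follow the order MDA-MB-231, then MDA-MB-436, then the line labelled MDA-MB-453. The lines serve as the replicates (n = 3), and each group holds 1 library of each line. Except where stated, p-values rest on how far differences between groups varied between lines, pooled over all 3 groups. That spread includes the difference between the GSK343-labelled and shEZH2-labelled libraries, so it is not the spread of a single comparison with the control. The p-values also take the libraries labelled MDA-MB-453 as an independent line, which was not tested. These are bulk samples, in which a change in every cell and a change in a share of the cells cannot be told apart.

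Depth, inferred from the RPKM values and annotated exon lengths, was 14757000 to 18283000 reads. The controls had 22975 to 23900 genes above 0, against 24430 to 26798 under the GSK343 label and 24998 to 27230 under the shEZH2 label. EZH2 transcript went against the labels: the controls had 27.4, 38.9 and 42.3 RPKM, the GSK343-labelled libraries 5.77, 7.53 and 7.99, and the shEZH2-labelled libraries 16.4, 37.4 and 16.2. It fell under the inhibitor's label (log2 change -2.19 ± 0.47, adjusted p = 0.000424) and did not pass under the hairpin's label (-0.70 ± 0.47, adjusted p = 0.0597), so both groups are named by their labels throughout. The libraries labelled MDA-MB-453 also stand apart from that name. FOXA1, a luminal forkhead factor, was at 1.01, 2.37 and 1.62 RPKM in their control, GSK343 and shEZH2 libraries, below the 2.77, 3.31 and 3.29 of MDA-MB-436. Of the 177 antisense RNAs, 109 (61.6%) in the control, 139 (78.5%) in the GSK343-labelled and 154 (87.0%) in the shEZH2-labelled library named MDA-MB-453 had an RPKM between those of the other lines, against 47.1%, 73.8% and 83.0% of all 12965 genes tested. Results below are therefore also given without the 3 libraries labelled MDA-MB-453.

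Most of the antisense RNAs were scarce. The median of their mean RPKM over the 9 libraries was 1.84, against 6.60 for all genes tested, and 97 members averaged under 2, 71 from 2 to 10 and 9 at 10 or more. In reads, the median member had 75.5 in its middle library, and 22 members had fewer than 20. LRRC75A-AS1, a host gene of small nucleolar RNAs, was highest, with 68.4, 64.3 and 53.9 RPKM in the controls, 95.7, 81.7 and 71.8 in the GSK343-labelled and 82.3, 77.5 and 79.5 in the shEZH2-labelled libraries. FGD5-AS1 followed with 27.0 to 43.2 RPKM, and its sense gene FGD5, a guanine nucleotide exchange factor of endothelium, stayed at or below 0.0897 RPKM in every library. NCBP2-AS2, which the annotation types as protein-coding, lay at 13.0 to 29.1 RPKM, RNASEH1-AS1 at 10.6 to 30.9, AFAP1-AS1 at 6.98 to 32.2 and MMP24-AS1 at 7.75 to 30. TRIM52-AS1 was more even, at 8.77 to 13.6 RPKM. The order from NCBP2-AS2 (mean 21.6) through RNASEH1-AS1 (20.2), AFAP1-AS1 (19.6), MMP24-AS1 (18.0) and LBX2-AS1 (17.4) is within the spread between libraries. The sense gene had the higher mean RPKM in 122 of the 173 pairs with a sense row, and the antisense RNA in 51. Only MFI2-AS1, HOXC-AS1, JHDM1D-AS1 and RPARP-AS1 had no row of the sense name.

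Some members differed widely between lines. Between the MDA-MB-231 control and that of MDA-MB-436 the difference was 4-fold or more on the scale of RPKM + 1 for 9 of the 177, 4 higher in the first line and 5 in the second. ELFN1-AS1 had no reads in any MDA-MB-231 library and 18.0, 10.7 and 9.71 RPKM in the control, GSK343-labelled and shEZH2-labelled libraries of MDA-MB-436, with 5.71, 4.68 and 3.65 in those of MDA-MB-453. ST8SIA6-AS1 had the same order of lines, at no more than 0.0335 RPKM in MDA-MB-231, 9.99 to 11.4 in MDA-MB-436 and 4.21 to 5.86 in MDA-MB-453. FGF14-AS2 likewise was at 0.167 to 0.204, 6.16 to 8.82 and 2.54 to 3.47 RPKM. In the other direction, SLCO4A1-AS1 was at 8.48, 2.08 and 6.56 RPKM in the 3 MDA-MB-231 libraries and at 0.183 to 0.512 in those of MDA-MB-436. TGFB2-AS1, beside the gene of the growth factor TGF-beta 2, was at 6.57 to 7.71 RPKM in MDA-MB-231 and 0.321 to 0.605 in MDA-MB-436, and its sense gene was at 23.1 to 28.2 and 2.68 to 3.85. HIF1A-AS2, which lies within the hypoxia factor gene HIF1A, was at 2.36 to 5.98 RPKM in MDA-MB-231 and at or under 0.113 in MDA-MB-436, although HIF1A itself was at 45.4 RPKM or more in all 9 libraries. These 6 were chosen for the distance between their controls, which has no test, and none of them passed for a treatment. In all 6 the libraries labelled MDA-MB-453 lay between the other lines, except for HIF1A-AS2 under the shEZH2 label, where that library was highest (2.60 RPKM against 2.36 and 0).

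**Figure D1:**
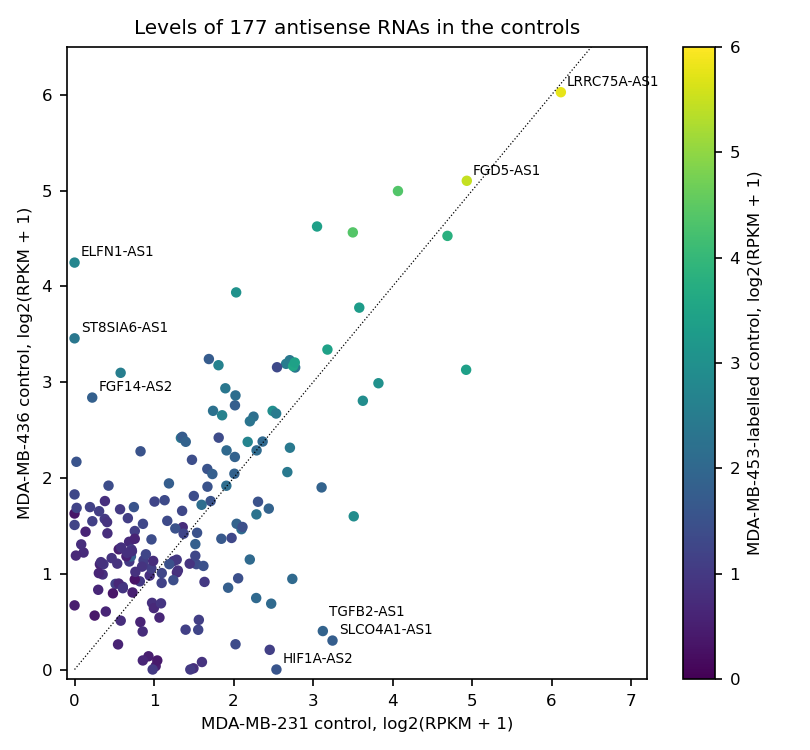
RPKM of the 177 antisense RNAs in the control libraries, on the log2(RPKM + 1) scale, with MDA-MB-231 on the x axis, MDA-MB-436 on the y axis and the MDA-MB-453-labelled control as colour. Each point is 1 RNA and the dotted line marks equal levels, so ELFN1-AS1 lies on the left edge (0 against 18.0 RPKM) and HIF1A-AS2 on the lower edge (4.81 against 0).

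Antisense RNAs that passed between the controls and the 6 libraries labelled GSK343 or shEZH2 were higher in the labelled libraries. With all 12965 genes in 1 limma fit on log2(RPKM + 1), in which treatments were compared within lines, 33 of the 177 passed for the mean of both interventions against the control, 33 higher and 0 lower (adjusted p under 0.05 over all genes; at unadjusted p under 0.05, 59 were higher and 4 lower). Of all genes tested 12.2% were called higher and 4.3% lower in this comparison. The members' median log2 change was 0.18, against 0.05 over all genes, and 78.5% of members against 56.9% of all genes had a positive value. Because the rule admits RNAs that reach 1 RPKM only in the labelled libraries, these counts describe the members that passed and were not tested against other genes. Of the 33, 11 were among the 20 members under 1 RPKM in all controls, which entered the list only through the labelled libraries. A further 9 were among the 83 at 1 or more in some controls, which also needed labelled libraries to enter. The other 13 were among the 74 at 1 or more in all controls, the only members that met the rule by their controls alone. Long intergenic RNAs outside the list had a median of 0.21 (345 genes), other RNAs of the annotation's antisense type 0.19 (282 genes) and other genes averaging under 5 RPKM 0.11 (5398 genes), with 79, 53 and 720 of them higher. For the members the medians were 0.18 both among the 147 averaging under 5 RPKM and among the 30 at 5 or more. Rescaling all libraries by median ratios gave a members' median of 0.12, with 25 higher and 2 lower. The whole table moved as well, to 1149 genes higher and 1151 lower with a median of -0.03. Without the 3 libraries labelled MDA-MB-453 the median was 0.17 and 2 members passed, ZMIZ1-AS1 and EMC3-AS1. Without the control of MDA-MB-453 alone 7 passed, 6 higher and 1 lower, and without the 3 libraries of MDA-MB-231 21 passed, all higher. Calls fell over the whole table too. Of all genes 1.12%, 5.19% and 8.31% were called in these settings, in that order, against 16.5% in the main fit.

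ZMIZ1-AS1 had the largest log2 change of the members that passed. It starts upstream of ZMIZ1, a transcriptional coactivator of nuclear receptors, and is transcribed away from it (GRCh38 chromosome 10, 78943328 to 79067895, minus strand, no shared exon, starts 1140 bases apart). The controls had 0.229, 0.781 and 0.575 RPKM, the libraries under the GSK343 label 1.30, 4.80 and 3.49, and those under the shEZH2 label 1.36, 4.82 and 2.99. All 6 labelled libraries were above all 3 controls, but the controls are under 1 RPKM, so this RNA is a member only through the labelled libraries and its tests are on values that selected it. The log2 change was 1.35 ± 0.33 for either intervention (95% confidence interval of the fit, adjusted p = 0.000407, 2.55-fold on the scale of RPKM + 1), 1.37 ± 0.38 under the GSK343 label (adjusted p = 0.00155) and 1.33 ± 0.38 under the shEZH2 label (adjusted p = 0.00176). Without the libraries labelled MDA-MB-453 it was 1.31 for either intervention (adjusted p = 0.0411), 1.30 under the GSK343 label (adjusted p = 0.0797) and 1.32 under the shEZH2 label (adjusted p = 0.0883). ZMIZ1 itself, at 23.3 to 26.1 RPKM in the controls and 16 to 29 in the others, had a log2 change of 0.00 ± 0.33.

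LBX2-AS1 and EMC3-AS1 were next, and both share exons with their sense genes. LBX2-AS1 starts inside the homeobox gene LBX2 and runs out past its start (chromosome 2, 74502595 to 74504678, plus strand) and 31.2% of its exon bases lie under LBX2 exons. It was at 3.09, 14.3 and 7.24 RPKM in the controls, 5.56, 40.3 and 23.6 in the GSK343-labelled and 3.04, 39.6 and 20.1 in the shEZH2-labelled libraries. The shEZH2-labelled library of MDA-MB-231 was at the level of its control, while the other 5 were above theirs (either intervention 1.07 ± 0.44, adjusted p = 0.00585). The call was lost without the control of MDA-MB-453, and all its libraries left out gave 0.87 (adjusted p = 0.127). EMC3-AS1 runs through EMC3, which encodes a subunit of the endoplasmic reticulum's membrane protein insertion complex (chromosome 3, 9986893 to 10006990, plus strand), and 6.14% of its exon bases lie under EMC3 exons. It was at 2.35, 5.50 and 3.74 RPKM in the controls, 6.17, 10.8 and 7.62 under the GSK343 label and 5.79, 11.0 and 7.95 under the shEZH2 label, so that all 6 libraries were above the highest control. The rise was 0.94 ± 0.25 (adjusted p = 0.00069) and 0.96 without the libraries labelled MDA-MB-453 (adjusted p = 0.033). EMC3, at 10.8 to 18.6 RPKM in all 9 libraries, had a change of 0.11 ± 0.25. LBX2 went from 1.17, 4.59 and 1.48 to between 1.33 and 5.51 RPKM, a change of 0.42 ± 0.34 that did not pass (adjusted p = 0.0817).

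The sequences around the starts of the 4 RNAs with the largest rise that have an entry are given to show what kind of promoter they have. They are RefSeq windows of 300 bases on GRCh38.p14, from 250 bases before to 50 after the annotated start, and 5′ to 3′ in the direction of transcription. Capitals mark matches, on either strand, to any of 5 motifs, none of which contains another. The GC box, a site of Sp1-type factors, was searched as GGGCGG. The CCAAT box was searched by the letters of its name. The TATA box, which positions the polymerase in a minority of promoters, was searched as TATAAA. For the AP-1 site, bound by Fos and Jun proteins, the letters were TGANTCA. The E-box, bound by Myc and related factors, was searched as CACGTG. The RefSeq start of ZMIZ1-AS1 lies 447 bases inside the gene's start in GENCODE, and those of the other 3 lie within 2 bases of it.
ZMIZ1-AS1 (chr10:79067399-79067698, minus strand): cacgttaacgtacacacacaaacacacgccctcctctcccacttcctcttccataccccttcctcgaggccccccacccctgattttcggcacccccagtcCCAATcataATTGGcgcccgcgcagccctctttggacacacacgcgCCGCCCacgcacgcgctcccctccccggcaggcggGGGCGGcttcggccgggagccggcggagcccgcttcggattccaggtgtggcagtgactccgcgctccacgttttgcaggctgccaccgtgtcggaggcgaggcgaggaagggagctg
LBX2-AS1 (chr2:74502343-74502642, plus strand): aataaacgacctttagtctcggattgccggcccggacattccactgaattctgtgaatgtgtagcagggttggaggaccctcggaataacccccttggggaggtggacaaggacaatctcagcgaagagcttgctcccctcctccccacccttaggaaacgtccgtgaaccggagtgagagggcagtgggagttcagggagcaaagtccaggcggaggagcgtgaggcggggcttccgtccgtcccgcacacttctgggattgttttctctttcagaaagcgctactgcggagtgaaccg
EMC3-AS1 (chr3:9986643-9986942, plus strand): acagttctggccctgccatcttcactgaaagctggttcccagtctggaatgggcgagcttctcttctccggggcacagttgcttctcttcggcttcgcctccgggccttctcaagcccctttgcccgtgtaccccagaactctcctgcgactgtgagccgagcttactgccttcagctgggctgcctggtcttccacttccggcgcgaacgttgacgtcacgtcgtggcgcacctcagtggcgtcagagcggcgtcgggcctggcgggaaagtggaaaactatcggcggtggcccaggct
ST3GAL6-AS1 (chr3:98732602-98732901, minus strand): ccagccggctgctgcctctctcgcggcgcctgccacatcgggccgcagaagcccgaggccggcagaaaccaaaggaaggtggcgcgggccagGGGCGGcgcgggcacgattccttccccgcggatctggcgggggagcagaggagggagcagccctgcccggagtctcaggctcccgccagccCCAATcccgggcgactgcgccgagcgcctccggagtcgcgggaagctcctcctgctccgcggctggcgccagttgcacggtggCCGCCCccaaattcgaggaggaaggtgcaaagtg
All 4 windows are rich in CpG, with 30, 18, 23 and 33 of these dinucleotides, and none holds the TATA letters. ZMIZ1-AS1 and ST3GAL6-AS1 hold 2 GC boxes each with 2 and 1 CCAAT boxes, whereas LBX2-AS1 and EMC3-AS1 hold none of the 5 motifs. Of the 177 members 114 had a window in RefSeq's table, 149 windows in all, with a median of 25 CpG against 14 over all 35116 windows. A GC box was found in 57% of the members' windows and 45% of all, a CCAAT box in 27.5% and 34.6%, a TATA box in 7.38% and 11.5%, an AP-1 site in 7.38% and 7.71%, and an E-box in 10.1% and 7.26%. The 22 windows of members that rose after either intervention had a median of 23.5 CpG, and 45.5% held a GC box. The windows of 144 sense genes, 239 in all, had a median of 23 CpG and a GC box in 61.5%.

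ST3GAL6-AS1 rose together with its sense gene. The RNA starts 415 bases inside ST3GAL6, a sialyltransferase gene, and runs back past its start (chromosome 3, 98714330 to 98732651, minus strand), with 12.7% of its exon bases under ST3GAL6 exons. It was at 0.495, 0.424 and 0.736 RPKM in the controls, 2.65, 1.43 and 2.47 under the GSK343 label and 1.17, 1.93 and 1.86 under the shEZH2 label, so that all 6 labelled libraries were above the controls. As for ZMIZ1-AS1, the controls are under 1 RPKM and the labelled libraries selected it. The change was 0.89 ± 0.34 (adjusted p = 0.0043), and 0.91 with adjusted p = 0.0919 without the libraries labelled MDA-MB-453. ST3GAL6 was at 2.67, 0.72 and 2.40 RPKM in the controls, 5.38, 2.09 and 3.47 under the GSK343 label and 4.05, 1.69 and 3.02 under the shEZH2 label, higher than its own line's control in all 6 (0.57 ± 0.28, adjusted p = 0.0127, and 0.69 with adjusted p = 0.0721 without MDA-MB-453). Both genes of a pair passed for either intervention in only 2 further cases. SLC25A25-AS1 rose by 0.67 ± 0.31 (adjusted p = 0.00944) and its sense gene SLC25A25, a mitochondrial ATP-magnesium carrier, by 0.53 ± 0.32 (adjusted p = 0.0304). ARHGAP31-AS1 rose by 0.54 (adjusted p = 0.0255) and ARHGAP31, a GTPase-activating protein of Rac and Cdc42, by 0.43 ± 0.27 (adjusted p = 0.0358). SLC25A25-AS1 (0.775, 0.410 and 0.505 RPKM) and ARHGAP31-AS1 (0.191, 0.477 and 0.298) were also under 1 RPKM in all controls. Both are thus members only through the labelled libraries, and their tests are on values that selected them. In reads, ARHGAP31-AS1 had only 2, 5 and 3 in the controls and 3 to 20 in the labelled libraries. ST3GAL6-AS1 had 7, 6 and 10 in the controls and 18 to 33 in the labelled libraries.

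Among the remaining members of the 20 with the largest changes, DLGAP1-AS2, CCDC18-AS1 and NOP14-AS1 kept their call without any single library. DLGAP1-AS2 was at 0.301, 1.97 and 0.998 RPKM in the controls, 1.09, 5.01 and 2.08 under the GSK343 label and 1.10, 4.78 and 2.48 under the shEZH2 label, with all 6 libraries above their line's control. Its change was 0.80 ± 0.27 (adjusted p = 0.00231). Only its MDA-MB-436 control was at 1 RPKM or more, so DLGAP1-AS2 also needed labelled libraries to meet the rule. Its test is thus partly on values that selected it. DLGAP1-AS1, a second RNA within the same neuronal scaffold gene, rose by 0.60 ± 0.28 (adjusted p = 0.0111, lost when the control of either MDA-MB-231 or MDA-MB-453 was left out), while DLGAP1 was at or under 0.17 RPKM throughout. CCDC18-AS1 was at 0.461, 0.199 and 0.493 RPKM in the controls, 1.35, 0.883 and 1.23 under the GSK343 label and 2.63, 0.857 and 1.62 under the shEZH2 label, again a member only through the labelled libraries, which were all above the controls (0.78 ± 0.31, adjusted p = 0.00511). CCDC18, a coiled-coil protein gene, had -0.04 ± 0.29. NOP14-AS1 was at 4.15, 4.21 and 3.05 RPKM in the controls, 7.97, 7.57 and 6.75 under the GSK343 label and 5.72, 7.21 and 7.21 under the shEZH2 label, with all 6 above the highest control (0.75 ± 0.29, adjusted p = 0.0044). NOP14, a factor of small ribosomal subunit assembly, was at 31.4 to 35.3 RPKM in the controls and 25.3 to 34.9 in the others (-0.20 ± 0.25, adjusted p = 0.247). Without the libraries labelled MDA-MB-453 the changes of DLGAP1-AS2, CCDC18-AS1 and NOP14-AS1 were 0.84, 0.82 and 0.64 with adjusted p of 0.0581, 0.0906 and 0.0756.

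Each of the other named rises lost its call on leaving out some single library. PDCD4-AS1, which starts 438 bases inside the translation inhibitor gene PDCD4 and runs back past its start, was at 0.69, 0.919 and 0.239 RPKM in the controls and 0.871, 2.48 and 2.60 under the GSK343 label, with changes by line for either intervention of 0.14, 0.99 and 1.44 (0.86 ± 0.44, adjusted p = 0.0158). It had only 3 to 44 reads in a library. CCDC183-AS1 rose by 0.79 ± 0.40 (adjusted p = 0.0146), with 0.16 in MDA-MB-231. DBH-AS1, within the dopamine beta-hydroxylase gene, went from 2.04 to 5.86 and 5.42 RPKM in MDA-MB-231 and from 0.841 to 2.65 and 2.28 in MDA-MB-453, but stayed at or below 0.226 in MDA-MB-436 (0.71 ± 0.38, adjusted p = 0.0177). ITGB2-AS1, at the leukocyte integrin gene ITGB2, showed the same order of lines (0.57 ± 0.35, adjusted p = 0.0343), with 1.03 to 3.03 RPKM in MDA-MB-231, at most 0.0691 in MDA-MB-436 and 0.407 to 1.48 in MDA-MB-453. DOCK9-AS2 had the reverse order (0.62 ± 0.40, adjusted p = 0.0402), going from 0.591 to 2.62 and 2.71 RPKM in MDA-MB-436 while MDA-MB-231 stayed at or under 0.084. PDCD4-AS1, CCDC183-AS1 and DOCK9-AS2 were under 1 RPKM in every control. They too are members only through the labelled libraries, and their tests are on values that selected them. DBH-AS1, ITGB2-AS1, NEXN-AS1 and PLS3-AS1 were at 1 RPKM or more in only some controls. They also needed labelled libraries to meet the rule, so their tests are partly on values that selected them. EXOC3-AS1, NEXN-AS1, PLS3-AS1, NUP50-AS1, URB1-AS1 and FOXD3-AS1 rose by between 0.56 and 0.60. PDCD4-AS1, CCDC183-AS1, NEXN-AS1 and FOXD3-AS1 lost the call without the control of MDA-MB-436 or that of MDA-MB-453, and DBH-AS1 without that of MDA-MB-231 or MDA-MB-453. SLC25A25-AS1, PLS3-AS1 and NUP50-AS1 lost it without the MDA-MB-453 control, and DOCK9-AS2, EXOC3-AS1, URB1-AS1 and ITGB2-AS1 without any 1 of 5 or more libraries. Of 22 named antisense RNAs called for either intervention, 6 kept the call with every single library left out, 16 lost it without the control of MDA-MB-453, and 2 kept it without all 3 libraries of that label. LRRC75A-AS1, the most abundant, passed narrowly (0.38 ± 0.26, adjusted p = 0.0497) and lost the call without any 1 of the 9 libraries, at 0.34 to 0.42.

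**Figure D2:**
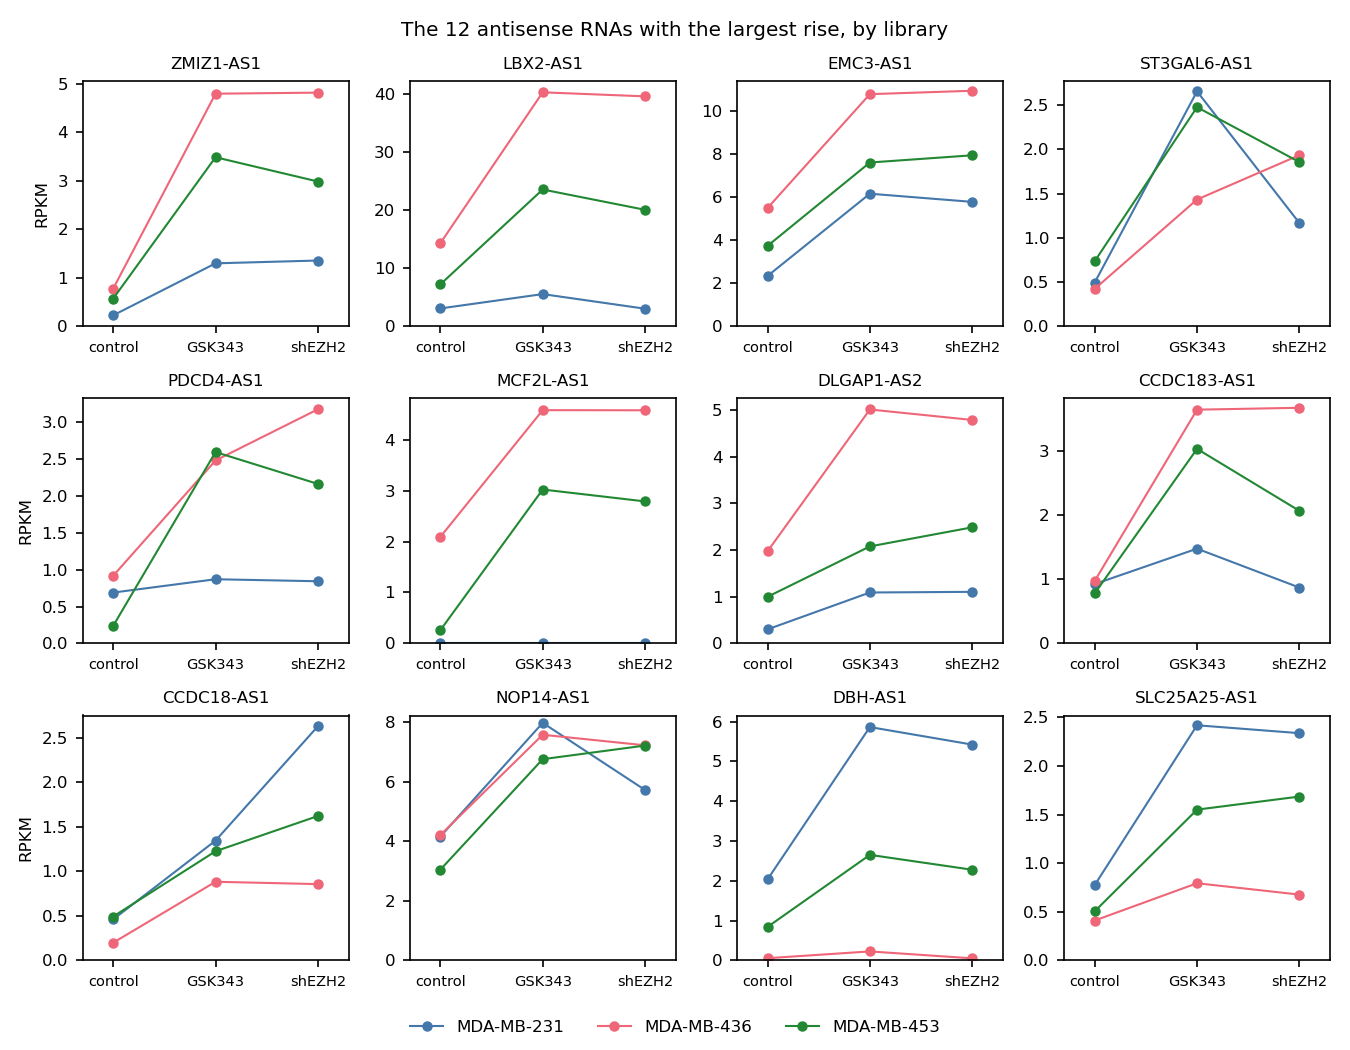
RPKM (y axis, from 0 on a linear scale of its own in every panel) in the control, GSK343-labelled and shEZH2-labelled library of each line, for the 12 antisense RNAs with the largest rise among those called for either intervention. Each point is 1 library and lines join the libraries of 1 cell line; in EMC3-AS1 all 6 libraries labelled GSK343 or shEZH2 are above the controls, and in MCF2L-AS1 the MDA-MB-231 libraries are at 0.

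Under the GSK343 label alone 18 of the 177 members passed, 18 higher and 0 lower, where 6.25% of all genes were higher and 1.6% lower. At unadjusted p under 0.05 there were 53 higher and 1 lower. The median log2 change was 0.21 against 0.06 over all genes, and 92 members had a positive value in all 3 lines and 8 a negative one. Within lines the medians were 0.12, 0.24 and 0.26, against 0.02, 0.10 and 0.04 for all genes. Besides those described above, LURAP1L-AS1 rose under this label (0.72 ± 0.35, adjusted p = 0.0217), from 0.523, 0.82 and 1.01 RPKM to 1.61, 2.72 and 1.55. With only the MDA-MB-453 control at 1 RPKM or more, LURAP1L-AS1 also needed labelled libraries to meet the rule. Its sense gene LURAP1L rose from 1.65, 3.44 and 3.09 to 4.51, 6.23 and 4.40 RPKM (0.72 ± 0.36, adjusted p = 0.0236). Neither LURAP1L-AS1 (0.90, adjusted p = 0.102) nor LURAP1L (0.88, adjusted p = 0.109) passed without the libraries labelled MDA-MB-453, and in that setting 0 members passed by limma (30 higher and 2 lower at unadjusted p under 0.05). Counts under this label were 4 without the control of MDA-MB-453 and 6, 10 and 8 without the GSK343-labelled library of each line in turn, and 9 without all libraries of MDA-MB-231. Of all genes 2.23%, 3.78%, 4.77%, 2.45% and 3.51% were called in these settings, in that order. The share was 0.33% without the libraries labelled MDA-MB-453 and 7.85% in the main fit.

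Under the shEZH2 label 18 members passed as well, 17 higher and 1 lower, where 8.35% of all genes were higher and 2.28% lower. At unadjusted p under 0.05 there were 48 higher and 5 lower. The median was 0.16 against 0.05 over all genes, with 0.00, 0.20 and 0.26 within the lines (all genes 0.00, 0.09 and 0.06). In MDA-MB-231 84 of the 177 members had a positive value, against 142 and 139 in the other lines. The RNA that fell was PRRT3-AS1, from 5.54, 3.98 and 4.35 RPKM in the controls to 3.03, 3.02 and 2.45 (-0.55 ± 0.31, adjusted p = 0.0306), with 4.97, 3.64 and 3.82 under the GSK343 label. All 3 shEZH2-labelled libraries were below all 3 controls, and the call was lost on leaving out either library (control or shEZH2-labelled) of MDA-MB-231 or of MDA-MB-453. PRRT3, its sense gene for a proline-rich membrane protein, had 0.28 ± 0.37 under this label. Both contrasts share the control libraries, so the members' values in them are not independent. Without the libraries labelled MDA-MB-453 limma called 0 members under this label (22 higher and 6 lower at unadjusted p under 0.05). Leaving out the shEZH2-labelled library of each line in turn gave 7, 10 and 4 members, leaving out the MDA-MB-453 control gave 4, and leaving out all libraries of MDA-MB-231 gave 8. Of all genes 3.16%, 7.02%, 3.46%, 2.48% and 3.10% were called in these settings, in that order. The share was 0.12% without the libraries labelled MDA-MB-453 and 10.6% in the main fit.

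**Figure D3:**
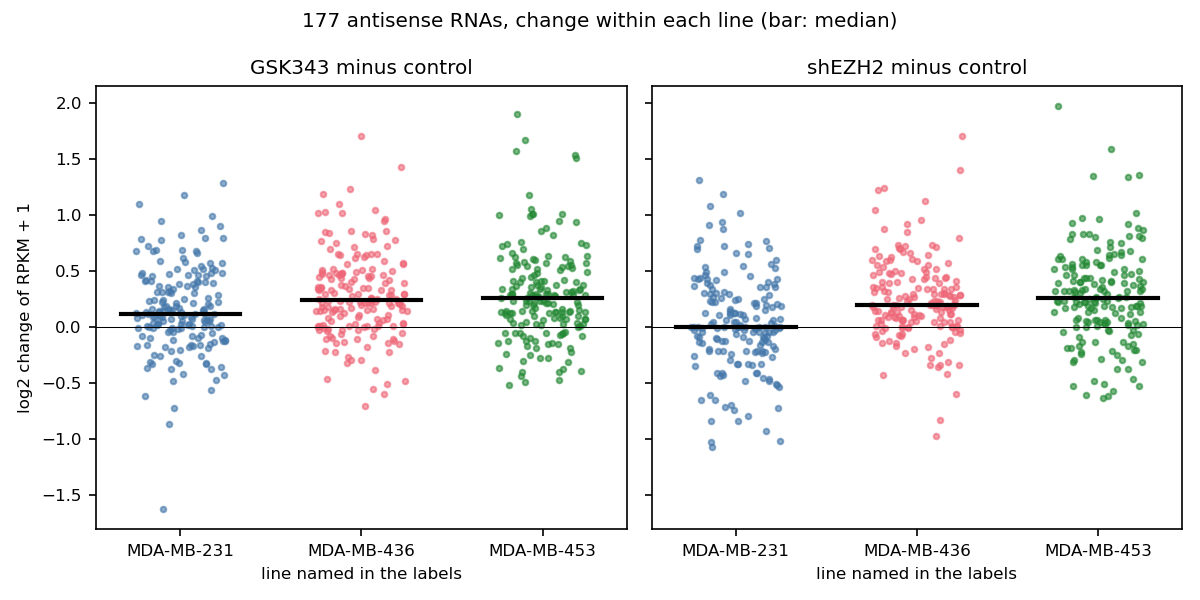
Log2 change of RPKM + 1 from the control to the library labelled GSK343 (left) or shEZH2 (right) within each line, for 177 antisense RNAs. Each point is 1 RNA, spread sideways for visibility, and bars are medians: 0.12, 0.24 and 0.26 on the left, and 0.00, 0.20 and 0.26 on the right.

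No antisense RNA passed for the direct difference between the 2 labels. For GSK343 against shEZH2 limma called 0 of the 177, and 0% of all genes were called higher and 0% lower, while 3 members had an unadjusted p under 0.05. These were LURAP1L-AS1 (0.67 ± 0.35 higher under the GSK343 label), PRRT3-AS1 (0.42 ± 0.31) and HIF1A-AS2 (0.50 ± 0.43), all 3 with an adjusted p of 1. FOXP4-AS1 came next (0.30 ± 0.32). The median half-width of the confidence interval for 1 label was 0.34 on the log2 scale, and the difference of 0.67 in LURAP1L-AS1 did not pass.

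Responses that differed between lines were not called among the members either. An F-test in limma with separate means for each line called 0 of 177 (30 at unadjusted p under 0.05), against 0.0231% of all genes. The smallest p belonged to MCF2L-AS1, an RNA within the guanine nucleotide exchange factor gene MCF2L, which was at 0 RPKM in all 3 MDA-MB-231 libraries. It went from 2.09 to 4.58 and 4.58 in MDA-MB-436 and from 0.262 to 3.02 and 2.79 in MDA-MB-453 (adjusted p = 0.08 for the difference between lines, and 0.83 ± 0.49 with adjusted p = 0.0292 for either intervention). That rise was lost without the control of MDA-MB-436 or MDA-MB-453 or that last line's GSK343-labelled library, and was 0.43 without the 3 libraries of that label. With only the MDA-MB-436 control at 1 RPKM or more, MCF2L-AS1 also needed labelled libraries to meet the rule. PITPNA-AS1 was at 1.49 RPKM in the MDA-MB-453 control and at 8.30 and 8.77 in that line's other libraries, against 4.04 to 9.02 in all 6 libraries of the other lines (adjusted p = 0.094). PRKAG2-AS1 went from 2.51 to 0.932 and 0.847 in MDA-MB-231 and from 1.60 to 2.19 and 2.43 in MDA-MB-453, and was at 4.31 to 4.40 in MDA-MB-436 (adjusted p = 0.0856). MID1IP1-AS1 went up in MDA-MB-436, from 1.27 to 3.69 and 2.69, and down in MDA-MB-231, from 0.635 to 0.18 and 0.145, and in MDA-MB-453, from 2.48 to 1.56 and 1.44 (adjusted p = 0.094).

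Sense genes passed in both directions. Of 140 distinct sense genes past the expression rule, 16 passed for either intervention, 8 higher and 8 lower, where 12.2% of all genes were higher and 4.3% lower (22 and 19 sense genes at unadjusted p under 0.05), with a median log2 change of 0.01. Under the GSK343 label 5 were higher and 2 lower (6.25% and 1.6% of all genes), and under the shEZH2 label 3 higher and 5 lower (8.35% and 2.28%). The first of these counts, 7, was 14 without the control of MDA-MB-436 and 3 without the MDA-MB-231 library labelled GSK343, the MDA-MB-453 library labelled GSK343 or the MDA-MB-453 control. Leaving out all libraries of MDA-MB-231 gave 2. Of all genes 9.64%, 3.78%, 2.45%, 2.23% and 3.51% were called in these settings, in that order, against 7.85% in the main fit. The second, 8, was 0 without the MDA-MB-453 control or that line's library labelled shEZH2. It was 1 and 3 without the library labelled shEZH2 of MDA-MB-231 or MDA-MB-436, 1 without all libraries of MDA-MB-231 and 5 without all of MDA-MB-436. For this second count the shares of all genes were 2.48%, 3.46%, 3.16%, 7.02%, 3.10% and 9.56%, in that order, against 10.6% in the main fit. The share that was higher depended on the scaling, for sense genes and for all genes. Rescaled by median ratios, 5 sense genes were higher and 16 lower for either intervention, 3 and 7 under the GSK343 label and 2 and 10 under the shEZH2 label. All genes gave 1149 and 1151, 521 and 442, and 805 and 620. Rescaled to a common sum the sense genes gave 5 and 8, 3 and 3, and 2 and 4. All genes then gave 1295 and 531, 569 and 240, and 1021 and 248. Without the libraries labelled MDA-MB-453 limma called 0 sense genes for either intervention (14 higher and 13 lower at unadjusted p under 0.05), 0 under the GSK343 label (12 and 10) and 0 under the shEZH2 label (10 and 12). Of all genes 1.12%, 0.33% and 0.12% were called there. The count of 16 was 6 with MDA-MB-231 left out, 8 without the MDA-MB-453 library labelled GSK343, and 9 without that line's control, its library labelled shEZH2, or the MDA-MB-436 library labelled shEZH2. Of all genes 8.31%, 9.98%, 5.19%, 11.4% and 12.8% were called in these settings, in that order, against 16.5% in the main fit. The sense genes that rose were VPS9D1, RHPN1, LURAP1L, ST3GAL6, MAFG, SLC25A25, RAB30 and ARHGAP31, and those that fell included TMPO, AFAP1, EIF3J, VIM, PSMA3, CTBP1 and STARD7. TMPO, a lamina-associated protein of the nuclear envelope, fell from 58.4, 22.9 and 61.0 RPKM to between 17.4 and 36.7 (-0.73 ± 0.31, adjusted p = 0.00691), and TMPO-AS1 had -0.36 (adjusted p = 0.062). MAFG, a small Maf transcription factor, rose from 17.1, 16.6 and 14.2 RPKM to between 19.5 and 25.9, above all controls (0.56 ± 0.27, adjusted p = 0.013).

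In 143 pairs in which both genes could be compared, the antisense RNA's change exceeded that of its sense gene in 106. The medians were 0.18 and 0.003. This count was not tested, and the expression rule admits RNAs that reach 1 RPKM only in the labelled libraries. For either intervention both changes were positive in 63 pairs, the antisense RNA was positive and the sense gene negative in 49, the reverse held in 11, and both were negative in 20. Pearson's r across the 143 pairs was 0.26 (Spearman 0.27), and the points share the 9 libraries and, for 3 sense genes, the sense gene. Where the 2 starts lie within 1 kb of each other (67 pairs) r was 0.47, and where they lie farther apart (75 pairs) it was 0.09. Under the GSK343 label these values were 0.46 and 0.22, and under the shEZH2 label 0.44 and -0.03. The difference between both kinds of pairs was not tested.

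**Figure D4:**
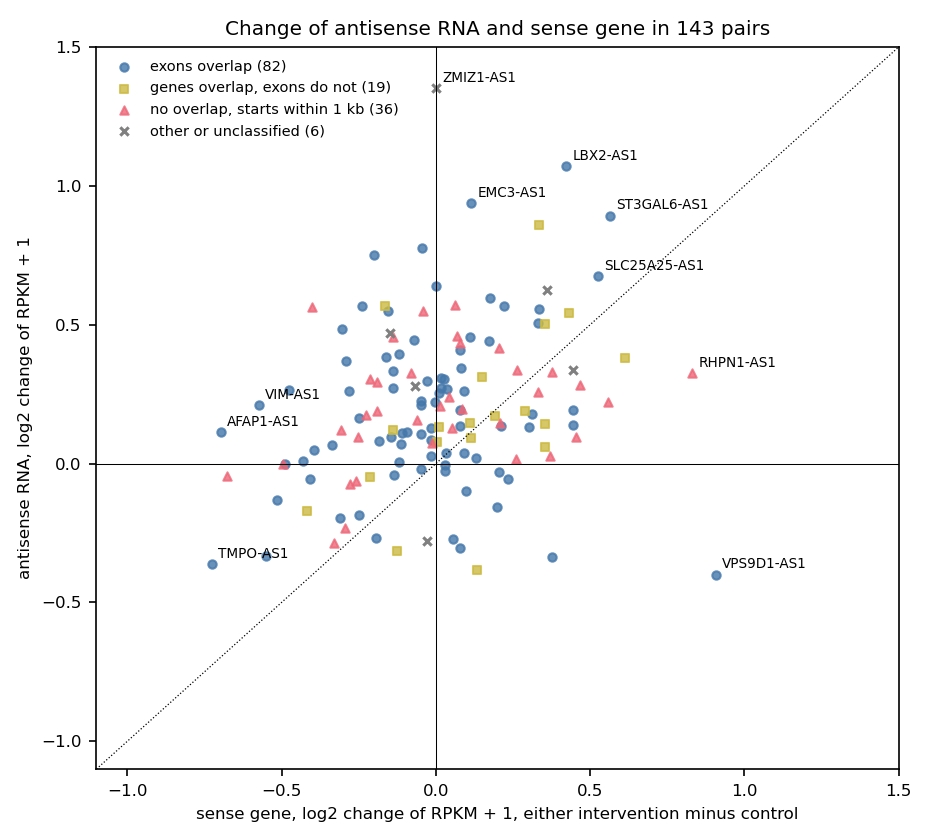
Log2 change of RPKM + 1 for either intervention against control, sense gene on the x axis and antisense RNA on the y axis, for 143 pairs marked by their arrangement in the annotation. Points above the dotted line of equal change (106 pairs) have the larger value in the antisense RNA; VPS9D1-AS1 and AFAP1-AS1 lie in the quadrants of opposite sign.

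Of the sense genes that passed, 4 belonged to an antisense RNA with an estimate of the opposite sign, though none of these RNAs passed. VPS9D1, a gene for an endosomal protein with a VPS9 domain, rose from 4.02, 2.12 and 1.5 RPKM in the controls to 6.21, 3.89 and 6.08 under the GSK343 label and 7.67, 3.57 and 5.77 under the shEZH2 label (0.91 ± 0.36, adjusted p = 0.00525, and 0.63 with adjusted p = 0.0798 without the libraries labelled MDA-MB-453). VPS9D1-AS1 was at 7.28, 23.7 and 9.38 RPKM in the controls, 5.37, 15.3 and 11.2 under the GSK343 label and 3.06, 15.3 and 9.20 under the shEZH2 label (-0.40 ± 0.36, adjusted p = 0.118). It was lower than its control in MDA-MB-231 and MDA-MB-436 and 0.10 higher on average in MDA-MB-453. AFAP1, an actin filament adaptor of Src, fell from 24.5, 42.8 and 39.3 RPKM to 14.9, 24.0 and 19.3 and to 20.8, 26.1 and 22.5 (-0.70 ± 0.28, adjusted p = 0.00514, and -0.60 with adjusted p = 0.0799 without MDA-MB-453). AFAP1-AS1, an RNA described as abundant in several carcinomas, was at 10.3, 22.7 and 19.9 RPKM in the controls and 6.98 to 32.2 in the others (0.11 ± 0.31). VIM, the intermediate filament vimentin, fell from 306, 341 and 401 RPKM to between 210 and 299 (-0.57 ± 0.34, adjusted p = 0.0276), with VIM-AS1 at 0.808 to 5.14 RPKM (0.21 ± 0.31). STARD7, a carrier of phosphatidylcholine, fell by 0.39 on the log2 scale (adjusted p = 0.0411), and STARD7-AS1 had 0.05 ± 0.29. The call of VIM was lost without any 1 of 5 libraries and that of STARD7 without any 1 of 8, the controls of MDA-MB-436 and MDA-MB-453 among both.

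URB1-AS1 and URB1 show a pair whose starts lie side by side. They are 104 bases apart on opposite strands of chromosome 21 (URB1-AS1 32393130 to 32393960, plus strand), with no shared base, and URB1 encodes a factor of large ribosomal subunit assembly. URB1-AS1 rose (0.57 ± 0.33, adjusted p = 0.027), from 2.23, 8.46 and 2.32 RPKM to 3.42, 10.1 and 5.88 under the GSK343 label and 3.88, 9.26 and 5.50 under the shEZH2 label, in all 6 libraries above the line's own control. URB1 was at 8.78, 10.0 and 10.6 RPKM in the controls and 7.34 to 13.7 in the others (0.06 ± 0.29). Without the libraries labelled MDA-MB-453 the antisense change was 0.35 (adjusted p = 0.235). The promoter windows share 220 bases and are shown on their own strands, with capitals as before.
URB1-AS1 (chr21:32392883-32393182, plus strand): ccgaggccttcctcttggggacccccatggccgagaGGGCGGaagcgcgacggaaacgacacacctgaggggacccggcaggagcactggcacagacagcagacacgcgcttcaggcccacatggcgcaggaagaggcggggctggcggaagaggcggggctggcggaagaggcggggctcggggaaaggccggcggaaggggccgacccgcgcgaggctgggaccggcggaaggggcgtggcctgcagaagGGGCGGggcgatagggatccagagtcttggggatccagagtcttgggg
URB1 (chr21:32392963-32393262, minus strand): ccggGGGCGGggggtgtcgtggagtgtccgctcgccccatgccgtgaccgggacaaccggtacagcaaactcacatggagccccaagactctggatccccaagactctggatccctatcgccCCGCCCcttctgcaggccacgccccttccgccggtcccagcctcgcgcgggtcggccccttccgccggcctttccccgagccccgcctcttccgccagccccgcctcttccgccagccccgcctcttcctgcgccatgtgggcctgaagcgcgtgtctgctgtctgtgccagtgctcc
Each holds 28 CpG and 2 GC boxes and none of the other 4 motifs.

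The arrangement of the pairs in GENCODE release 29 was the following. Of the 177 antisense RNAs 103 share exon bases with the sense gene on the other strand, 27 overlap it outside exons, 37 do not overlap and start within 1 kb of its start, 5 lie farther away and 5 could not be classified. For either intervention 19 of the 103, 7 of the 27, 5 of the 37 and 2 of the 5 farther ones rose, where 12.2% of all genes did. Medians of the log2 change were 0.16, 0.15, 0.20 and 0.47. The strand setting of the counting is not given, and reads over shared exons cannot then be told apart, so values of the 103 are uncertain for the shared part. Among all -AS rows with coordinates, none of the 21 whose exons lie for 90% or more under sense exons passed the expression rule, and 19 of them (90.5%) were listed at 0 in all 9 libraries. For those with 50% to under 90% shared, 2 of 52 passed. With less than 50% shared 101 of 542 passed (18.6%) and 15.5% were at 0 throughout, and with no shared exon base 69 of 516 passed (13.4%) and 26.7% were at 0. Whether the share of exons that can be counted sets these values was not tested.

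Lists of genes that act on such RNAs, and a list of other long noncoding RNAs, were set beside the members. Of 25 genes of the nuclear RNA exosome and its targeting complexes, which degrade many antisense and promoter transcripts, limma called 3 lower and 0 higher for either intervention, where 4.3% of all genes were lower and 12.2% higher (10 and 0 of the list at unadjusted p under 0.05), and the list's median was -0.26 against 0.05 over all genes. The 3 that fell were SRRT, which couples the cap-binding complex to RNA decay (-0.57 ± 0.29, adjusted p = 0.0146), EXOSC8, a subunit of the exosome ring (-0.43 ± 0.26, adjusted p = 0.0294), and MPHOSPH6, an exosome cofactor in ribosomal RNA processing (-0.46 ± 0.30, adjusted p = 0.0387). None of the 3 passed without the libraries labelled MDA-MB-453 or without the control of MDA-MB-231. Of 22 tested genes for sensing and editing double-stranded RNA 1 rose and 2 fell for either intervention, against the same shares of all genes. DHX58, a cytoplasmic RNA sensor, was the one that rose (0.58 ± 0.35), and DHX9, a helicase, was among those that fell (-0.64 ± 0.30). The median of that list was -0.02. Of 22 tested long noncoding RNAs not named as antisense 4 rose and 1 fell (12.2% and 4.3% of all genes), with a median of 0.19. NEAT1, the scaffold of paraspeckles, rose by 0.90 ± 0.30 (adjusted p = 0.00209), MALAT1, of nuclear speckles, by 0.65 ± 0.33 (adjusted p = 0.0143) and SNHG12, a snoRNA host, by 0.56 ± 0.33 (adjusted p = 0.0292). None of these 3 passed without the libraries labelled MDA-MB-453.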

How the data were processed

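Gene expression in 9 libraries (3 cell lines, each as control, GSK343 and shEZH2) was deposited by the authors as RPKM in 1 table of 58037 genes. STAR, HTSeq and the build GRCh38 are listed in the submitters' processing notes; tool versions, annotation and strandedness of the counting were not given in the sources used here. For genes whose identifier has the same version in GENCODE release 29 (92.5% of rows, 159 of 177 members), values of under 30 reads, multiplied by that release's exon lengths, were whole reads within 0.05 in 100% of cases; for the other members read numbers are approximate. The table had 0 unused value columns.

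Genes at 1 RPKM or more in at least 3 libraries (12965) were fitted as log2(RPKM + 1) in limma 3.58.1 (statmod 1.5.0, R 4.3.3), with terms for treatment and line, a mean-variance trend and 4 residual degrees of freedom. Moderated p-values are two-sided and Benjamini-Hochberg adjusted over all genes (threshold 0.05). Errors of log2 changes are 95% confidence limits. An F-test over line-specific means had 3 residual degrees of freedom, all from the difference between the GSK343-labelled and shEZH2-labelled library of a line. With 3 lines an exact sign-flip test cannot go below p = 0.25, so it was not used.

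The lines pair the libraries: deviations from group means correlated at 0.358 to 0.953 within lines and -0.914 to 0.090 between lines, across genes, which are not independent replicates.

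Members, lists and naming rule were chosen with earlier results of these data known. Named were the 20 largest changes with 1 sign in all lines among 34 candidates, the 8 highest, the 6 widest line differences, 4 opposed sense genes, the 4 smallest p-values each for the direct comparison and for lines, and 3 genes per list. Other genes named were chosen after their values were seen. Some genes are not reported here. The fit was tested on simulated data. Alternatives were pseudocounts, filters, 2 rescalings, moderation settings, no replicate block, 6 libraries only, and leaving out libraries or lines.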

Additional observations from a re-analysis of the deposited data

How the results depend on the processing

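Without the replicate block, limma called 0 antisense RNAs under either label or for either intervention (12 higher and 1 lower under each label, and 16 and 1 for either, at unadjusted p under 0.05) and 0 sense genes in these 3 comparisons (5 higher and 2 lower, 4 and 2, and 5 and 6). With no filter on low values, 0, 0 and 3 of 912 antisense rows passed under the GSK343 label, the shEZH2 label and either intervention, 12 for the difference between lines, and 0 sense genes in the 3 comparisons, where more genes of low values entered the adjustment (at unadjusted p under 0.05, 97 antisense rows higher and 7 lower under the GSK343 label and 93 and 10 under the shEZH2 label, and 17 and 19, 19 and 16, and 26 and 21 sense genes). Of all genes 2, 2 and 3 were called without the block, and 0.038%, 0.041% and 0.505% without the filter. At a mean RPKM of at least 5, 6, 4 and 9 of the 30 antisense RNAs left passed, where 10.1%, 12.6% and 18.7% of all genes did. With the 6 libraries of a comparison alone, 11 sense genes passed under the GSK343 label, and 9.73% of all genes. Leaving out 1 library or 1 line gave 0 to 20, 0 to 21 and 2 to 28 antisense RNAs under the GSK343 label, the shEZH2 label and either intervention, and 0 to 14, 0 to 11 and 0 to 19 sense genes. The shares of all genes called ran from 0.33% to 9.64%, 0.12% to 12.5% and 1.12% to 15.8%. Of 53 calls of named antisense RNAs, 53 were kept with robust variances or no trend, 51 at a pseudocount of 0.1, 45 after median-ratio rescaling and 2 without the libraries labelled MDA-MB-453, and none turned its direction in these settings. The direct comparison kept 0 calls among antisense RNAs and sense genes in every setting run; for the difference between lines the block and libraries left out were not varied. With 22 members under 20 reads in their middle library, counting error limits the scarce RNAs most.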
